A study of Rattus norvegicus with 14 samples.

Results

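Cryl1, Mme, Csmd1, Coro6 and Car2 are 5 genes that stood higher in the liver of rats fed a rosemary extract and that belong to none of the usual lists of detoxification enzymes. They were picked by name from the larger rises of the same data, so their rise is how they were chosen and is given here as a description with no test. All 5 were found among the 14506 genes that had a probe of exactly 1 gene symbol, each through a single probe, and no probe shared with other genes listed any of them. What the choice did not use is how the genes vary among rats of the same diet, and whether in that variation they follow Cyp2b2 or Nqo1.

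The series holds livers of 14 lean female Zucker rats, about 15 weeks old, all with the genotype fa/+, that is with 1 mutant copy of the leptin receptor gene. For 64 days, 7 control rats ate a standard diet and 7 rats ate that diet with rosemary extract at 0.05% by weight. Carnosic acid, a diterpene of the plant, made up 40% of the extract. The dose is that of the sample labels; the series title gives 0.5%. Each rat has its own array, and the values are log2 RMA expression values, so a difference of 1 is a doubling. The values run from 1.95 to 14.01, the median over genes lay between 6.00 and 6.18 on the 14 arrays, and arrays correlated between 0.984 and 0.997 across genes. A whole piece of liver was measured, so more RNA per cell and more cells of a type cannot be told apart. Hepatocyte markers stood high in every rat (mean over 11 markers 12.69 to 12.89 in controls and 12.72 to 12.83 with the extract).

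The liver answers foreign compounds mainly through transcription factors that sense them. CAR, a nuclear receptor, drives cytochromes P450 of the 2B family, and Cyp2b2 is its classic target in the rat. NRF2 responds to electrophiles and oxidants and drives Nqo1, a quinone reductase. Among the 5 genes described, Cryl1 encodes lambda-crystallin, an L-gulonate dehydrogenase of the uronate pathway, the route that turns UDP-glucuronate into ascorbate or pentose sugars. Mme encodes neprilysin (CD10), a zinc peptidase of the cell surface that cuts small signalling peptides. Csmd1 encodes a very large membrane protein of CUB and sushi domains that inhibits complement, Coro6 a coronin that binds actin, and Car2 the cytosolic carbonic anhydrase II, which interconverts carbon dioxide and bicarbonate.

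RefSeq's promoter table (build GRCr8) holds 3 of the 5 genes, Cryl1, Mme and Coro6. Their 250 bases before the transcript start are shown because these genes were higher in the same livers and the first question is which sensor's motif, if any, lies there. Capitals mark the letters GCGTG or their reverse complement, the core of the AHR element.
Cryl1, chr15:35661564-35661813, minus strand: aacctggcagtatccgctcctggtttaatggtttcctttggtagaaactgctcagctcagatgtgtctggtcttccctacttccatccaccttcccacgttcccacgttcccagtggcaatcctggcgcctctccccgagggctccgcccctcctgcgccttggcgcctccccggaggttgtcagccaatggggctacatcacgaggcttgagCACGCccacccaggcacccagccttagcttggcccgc
Mme, chr2:149872247-149872496, plus strand: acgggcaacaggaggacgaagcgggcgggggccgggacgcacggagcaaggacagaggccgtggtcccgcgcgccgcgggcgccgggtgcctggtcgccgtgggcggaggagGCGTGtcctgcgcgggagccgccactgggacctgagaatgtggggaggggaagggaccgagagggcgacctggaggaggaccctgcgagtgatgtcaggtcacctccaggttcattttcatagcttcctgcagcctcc
Coro6, chr10:62810951-62811200, plus strand: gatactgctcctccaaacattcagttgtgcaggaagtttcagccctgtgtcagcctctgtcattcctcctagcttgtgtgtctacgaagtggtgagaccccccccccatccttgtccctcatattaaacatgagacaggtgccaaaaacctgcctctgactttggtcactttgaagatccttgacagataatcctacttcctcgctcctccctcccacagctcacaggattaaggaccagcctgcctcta
The window searched for motifs was these 250 bases and the 50 that follow the start, on both strands. TGACNNNGC, the core of the antioxidant response element that NRF2 binds, had 0 matches in the 3 promoters, where 12.2% of 27457 promoters of that length hold it. It had 0 matches in the same window of Nqo1 too. Direct repeats of the hexamers AGGTCA or AGTTCA with a spacer of 4 bases, of the kind CAR and PXR bind, had 0 matches in the 3 promoters and in that of Cyp2b2, and are held by 0.00364% and 0.0146% of promoters. GCGTG had 1 match in Cryl1, 1 in Mme and 0 in Coro6, and 31.1% of promoters hold it. It had 1 match in Cyp2b2 and 1 in Nqo1 too. The searched motifs do not overlap in these windows, and a match, or its lack, describes the letters of this window and nothing of a factor. The promoters differ in base composition: the 250 bases of Mme are 70.4% G and C with 25 CpG pairs, those of Cryl1 61.6% with 12, and those of Coro6 50.8% with 2, beside a median of 52% G and C over all promoters.

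Cryl1 had the largest difference of the 5. Its values in the control rats had a lowest of 7.55, a median of 7.97 and a highest of 8.59, and those in the extract rats 9.19, 9.95 and 10.40. The groups did not overlap, and extract rat 7 stood lowest of its group by a clear margin. The mean went from 8.06 ± 0.37 to 9.90 ± 0.37 (SD, n = 7 each), a log2 difference of 1.84 ± 0.17 (SE) or 3.58-fold, the place 8 among the rises of all genes.

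Mme went from 4.19 ± 0.32 to 5.98 ± 0.69 (SD, n = 7 each), a log2 difference of 1.80 ± 0.24 (SE) or 3.47-fold. Control rats ran from 3.93 over a median of 4.11 to 4.84, below the 6.09 of the median gene of these arrays. Extract rats ran from 5.03 over 6.17 to 6.67. The gap between the lowest extract rat and the highest control rat was only 0.20, the narrowest of the 5 genes. Extract rats 4 and 7 (5.03 and 5.12) lay near control rat 1 (4.84), while extract rats 1, 3 and 2 (6.67, 6.65 and 6.43) stood well above. The SD of Mme with the extract was 2.11 times that in controls and larger than that of 99.8% of all genes in the extract rats.

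Csmd1 ran from 5.66 over 6.35 to 6.65 in controls and from 7.44 over 7.73 to 8.24 with the extract. It had the widest gap between the groups, 0.79, and control rat 6 stood alone at the low end. Its log2 difference was 1.46 ± 0.15 (SE), or 2.75-fold, from 6.34 ± 0.34 to 7.79 ± 0.31 (SD, n = 7 each).

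Coro6 ran from 5.36 over 5.91 to 6.15 in controls and from 6.68 over 7.09 to 7.71 with the extract, with no overlap. Its log2 difference was 1.38 ± 0.16 (SE), or 2.59-fold, from 5.79 ± 0.29 to 7.17 ± 0.37 (SD, n = 7 each). The control mean lies under the median gene here as well.

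Car2 ran from 8.46 over 8.82 to 9.38 in controls and from 9.79 over 10.15 to 10.60 with the extract. The groups were 0.41 apart, with control rats 1 and 4 (9.38 and 9.15) highest in their group. The log2 difference was 1.33 ± 0.14 (SE), or 2.51-fold, from 8.87 ± 0.31 to 10.20 ± 0.26 (SD, n = 7 each), place 22 among all rises.

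**Figure D1:**
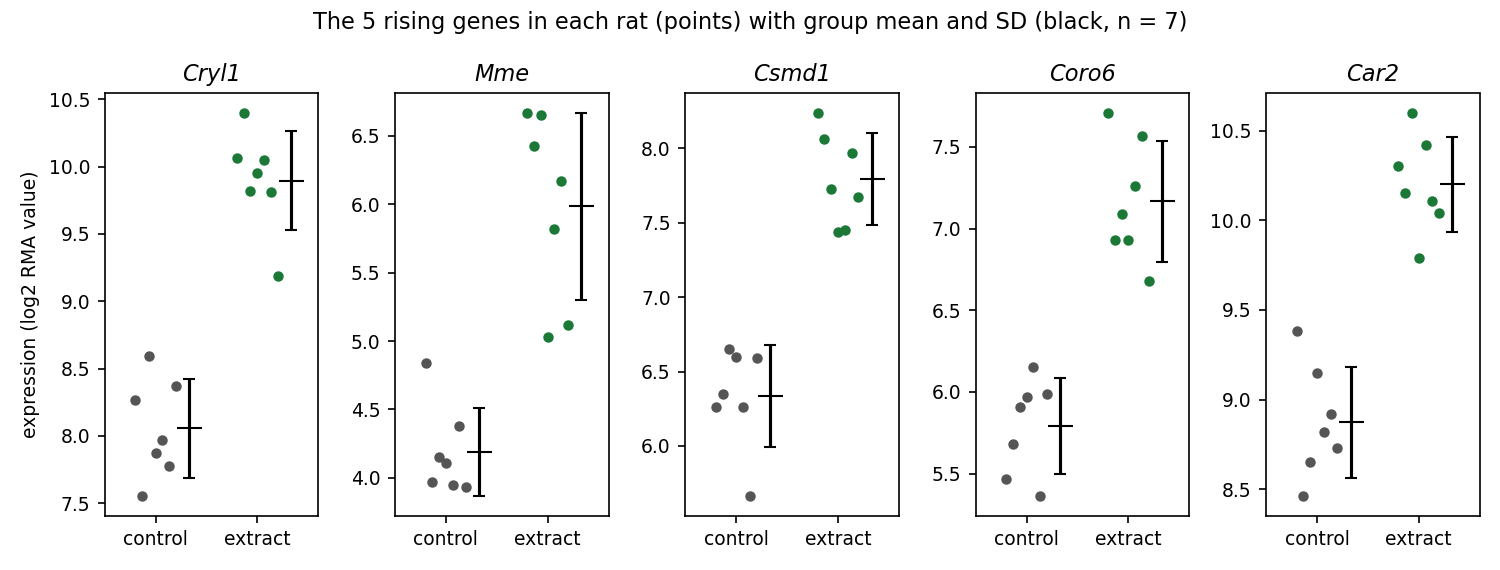
Expression (log2 RMA value, a separate axis for each gene) of Cryl1, Mme, Csmd1, Coro6 and Car2 in each of 7 control and 7 extract rats, with the group mean and SD in black. In all 5 genes the 7 extract rats lie above the 7 control rats; the gap is narrowest in Mme (0.20) and widest in Csmd1 (0.79).

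All 7 extract rats lay above all 7 controls in 5 of the 5 genes; over all genes 1.09% show this. In limma's test across genes 2.00% of all genes passed upward and 1.15% downward at an adjusted p of 0.05. Since the genes were chosen on this contrast, nothing is read from their count. Median centring of the arrays took the upward share of all calls from 63.5% to 74.2%, and the 5 log2 differences kept their sign under every scaling tried. The 5 genes were also variable among rats of one diet: their SD lay above that of 90.1% to 96.8% of genes in controls and of 89.5% to 99.8% with the extract.

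The relatives of each gene were examined through lists of their families and pathways. Outside the 5 genes, 107 distinct list genes were measured, of which 4 rose and 0 fell in limma's test. That is 3.74%, near the 3.15% of all genes called in either direction. It is above the 2.00% of all genes called upward, and that difference was not tested. Without control rat 1 the number that fell was 3. The median log2 difference was 0.03, beside -0.001 over all genes.

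In the uronate pathway, 2 of 13 measured genes besides Cryl1 rose, 0 fell and 11 did not pass, with a median log2 difference of 0.06. The genes that rose make UDP-glucuronate, the donor for glucuronidation as well as the head of this pathway. Ugdh, UDP-glucose dehydrogenase, ran from 9.73 over 10.25 to 10.54 in controls and from 11.09 over 11.21 to 11.42 with the extract. It rose 2.02-fold (log2 difference 1.02 ± 0.11 SE, limma adjusted p = 2.33e-05). Ugp2, which makes UDP-glucose, rose 1.91-fold, from 10.88 ± 0.25 to 11.81 ± 0.11 (SD, n = 7 each; limma adjusted p = 1.23e-05). In both genes the 7 extract rats lay above the 7 controls. The steps next to Cryl1 did not pass: Akr1a1, which makes L-gulonate from glucuronate, had a log2 difference of 0.07, Dcxr, which acts after Cryl1 on L-xylulose, of 0.06, and Xylb, the xylulose kinase, also of 0.06. Gulo, the last enzyme of ascorbate synthesis from the same L-gulonate, had -0.38 (limma adjusted p = 0.063; it fell in the same test without control rat 1, without extract rat 7 and under 4 of the 7 other settings). Among 5 enzymes with 3-hydroxyacyl-CoA dehydrogenase activity, some of them relatives of Cryl1 and others of a different family, limma called 0 (1 had an unadjusted p under 0.05), with Hsd17b4, a peroxisomal enzyme of fatty acid oxidation, first (0.23, adjusted p = 0.28).

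From rat to rat, Cryl1 passed with neither of the UDP-glucuronate genes, in 4 relations chosen after their values were seen. Its r with Ugp2 was 0.70 over the 7 extract rats (rho 0.29; exact permutation p = 0.099, adjusted p = 0.40) and 0.16 over the 7 control rats (rho 0.04). Its r with Ugdh was 0.03 with the extract (rho 0.46) and -0.29 in controls (rho -0.36).

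Among the other genes of the neprilysin family (M13 peptidases), limma called 0 of 5 (0 had an unadjusted p under 0.05). Ece1, the endothelin-converting enzyme, had a log2 difference of -0.05, and Ece2, first by p, of 0.08 (adjusted p = 0.67); the family's range was -0.05 to 0.08, against 1.80 for Mme. Of 15 peptidases outside the family that cut small peptides, 1 rose and 14 did not pass (4 had an unadjusted p under 0.05). This was Dpp4, which trims incretins and chemokines (10.07 ± 0.12 to 10.43 ± 0.11, SD, n = 7 each; 1.28-fold, limma adjusted p = 0.00557), with all 7 extract rats above all controls.

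In the families of the other 3 genes limma called 0 genes. Of the CSMD and SEZ6 proteins only Sez6l and Sez6l2 were measured besides Csmd1, with log2 differences of 0.00 and -0.04 (0 had an unadjusted p under 0.05). Of 10 complement regulators 0 passed (2 had an unadjusted p under 0.05), with clusterin (Clu) first (0.23, adjusted p = 0.085; it passed after median centring). The 6 other coronins lay between -0.15 and 0.05 (0 had an unadjusted p under 0.05), with Coro2b first by p (-0.15, adjusted p = 0.38). The 22 measured genes of actin turnover, the Arp2/3 complex and cofilins among them, had a median of 0.00 and 0 calls (4 had an unadjusted p under 0.05). Arpc1a, an Arp2/3 subunit, came first (-0.40, adjusted p = 0.085; 0.032 without control rat 5).

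Of 14 other carbonic anhydrases limma called 0 (1 had an unadjusted p under 0.05), 7 with a positive and 7 with a negative log2 difference. Car12, a membrane form, had -0.73 ± 0.25 (SE, adjusted p = 0.15), and this value depends on control rat 1, without which it fell (adjusted p = 0.00481). Of 15 carriers of bicarbonate, protons and lactate, 1 rose: Slc16a7, a monocarboxylate carrier (1.25-fold, limma adjusted p = 0.037), with 5 of 7 extract rats above all controls. That call was lost in 9 of the 14 fits without 1 rat (adjusted p up to 0.085) and after repeated quantile normalization (0.066).

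**Figure D2:**
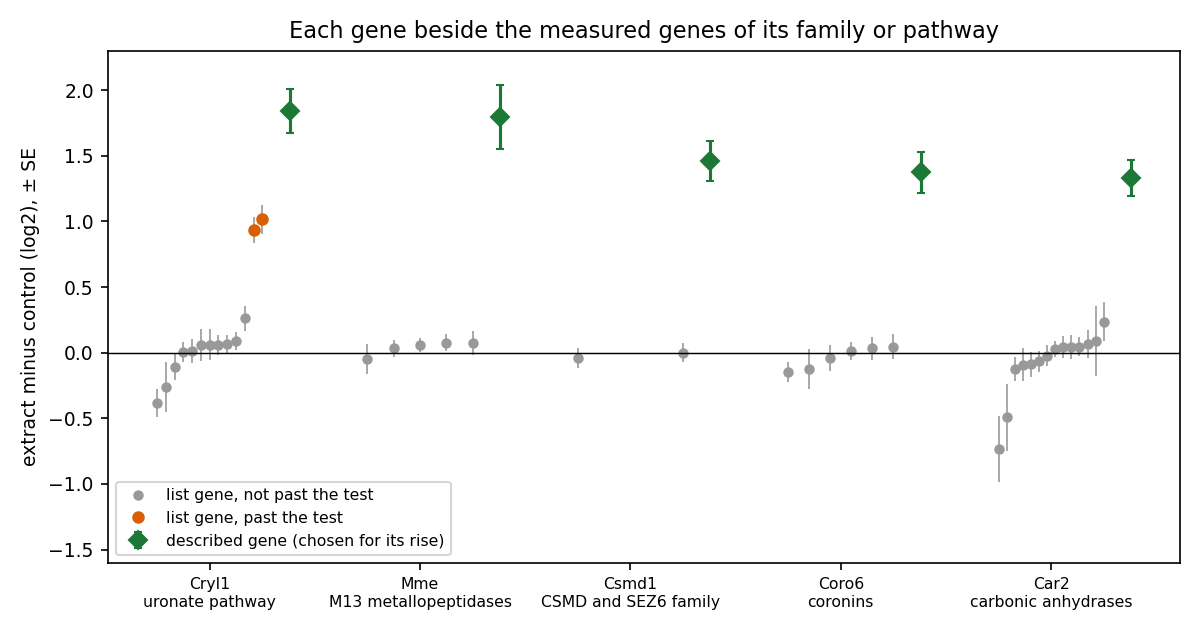
Difference between extract and control rats (log2, ± SE) of each described gene (green diamonds, chosen for their rise) and of the other measured genes of 5 lists (circles; orange past limma's adjusted p of 0.05): the uronate pathway, M13 peptidases, CSMD and SEZ6 proteins, coronins and carbonic anhydrases. Of the circles in these 5 lists, Ugdh (1.02) and Ugp2 (0.94) are past the test; the coronins lie between -0.15 and 0.05.

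Markers of red cells, muscle, neutrophils and lymphocytes, in which some of these genes are known to be active, did not pass in either direction. Of 8 markers of red cells, which are rich in carbonic anhydrases, limma called 0 (0 had an unadjusted p under 0.05); their mean lay between 5.49 and 5.74 in controls and between 5.32 and 5.80 with the extract, and beta-globin (Hbb) had a log2 difference of -0.29. Of 9 markers of skeletal muscle, where Coro6 is also known, limma called 0 (1 had an unadjusted p under 0.05), with list means of 4.17 to 4.41 and 4.26 to 4.47. Neutrophil and lymphocyte markers, relevant to CD10, also had 0 calls among 10 and 8 genes (2 and 1 had an unadjusted p under 0.05), though 1 neutrophil marker fell without extract rat 4. Of 9 bile duct markers 0 rose and 1 fell, Prom1 (-2.22), and Krt19, a defining keratin, had 0.14 (2 of the 9 had an unadjusted p under 0.05). Macrophage markers had negative differences in 12 of 12 genes, of which 10 had an unadjusted p under 0.05. Limma called 2 of the 12 lower (Marco -0.73 and Vsig4 -0.51, adjusted p = 0.00586 and 0.024), with list means of 8.91 to 9.17 in controls and 8.54 to 8.86 with the extract. Only 1 macrophage marker fell without extract rat 1 or without extract rat 2, 5 fell without extract rat 7, and 4 after repeated quantile normalization. Of 11 stellate cell and fibroblast markers 3 had an unadjusted p under 0.05 and 1 fell (Pdgfrb, -0.37, limma adjusted p = 0.042). The call of Pdgfrb was lost with the intensity trend and in 9 of the 14 fits without 1 rat (control rats 2, 3, 5, 6 and 7, extract rats 2, 3, 4 and 5). Limma called 0 of 6 endothelial and 0 of 5 adipocyte markers (2 and 1 had an unadjusted p under 0.05). The endothelial markers had negative differences in 6 of 6 genes, with a median of -0.18. The brightest gene of each remaining list did not pass: log2 differences were -0.04 for Alb, -0.01 for Slc4a2, -0.01 for Lcn2, -0.19 for Cd4, -0.48 for Lrat, -0.12 for Fcgr2b, 0.04 for Acta1 and -0.14 for Cfd. What part the macrophage change has in the 5 rises was not tested.

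Whether the 5 genes follow Cyp2b2 or Nqo1 was asked among rats of the same diet. The diets form separate clusters, so r was computed over the 7 control and the 7 extract rats apart, in 20 relations (5 genes, 2 reference genes, 2 groups) tested by exact permutation over all pairings of the 7 rats, two-sided, with Benjamini-Hochberg adjustment over the 20. Cyp2b2 ran from 4.72 to 5.88 in controls and from 8.72 to 10.24 with the extract, Nqo1 from 7.86 to 8.51 and from 9.32 to 9.998. The relation between the reference genes themselves did not pass: r was 0.11 in controls (rho -0.29, exact permutation p = 0.83) and -0.32 with the extract (rho -0.04, exact permutation p = 0.49).

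Mme followed Cyp2b2. In the extract rats r was 0.94 and rho 0.93, the relation of the 20 that passed (exact permutation p = 0.00179 for r and 0.00675 for rho, adjusted p = 0.036 for r and 0.13 for rho). Without the rats farthest from the median of Cyp2b2 (2 of 7) r was 0.93. Extract rat 1 was highest in both genes (Cyp2b2 10.24, Mme 6.67), extract rats 2 and 3 came next, and extract rats 4 and 7 were lowest in both (Cyp2b2 8.72 and 9.09, Mme 5.03 and 5.12). In the control rats, at levels near 5 for Cyp2b2 and 4 for Mme, r was 0.83 and rho 0.75 (exact permutation p = 0.016 and 0.066, adjusted p = 0.16 and 0.31), with control rat 1 highest and control rat 7 lowest in both genes, and r was 0.71 without the rats farthest from the median. Counting Mme itself, only 0.0345% of genes had an r with Cyp2b2 at least this high in the extract rats, and 1.48% in the controls. The call itself was narrow: r stayed between 0.92 and 0.96 without each extract rat in turn, but the adjusted p was then 0.056 to 0.16, and after median centring r was 0.94 with an adjusted p of 0.052. The array median over genes moved with both genes in the extract rats (r = 0.84 with Mme and 0.85 with Cyp2b2, rho 0.86 and 0.75, exact permutation p = 0.013 and 0.016, adjusted p = 0.115 for each over 14 relations) and the other way in the controls (-0.57 and -0.63, rho -0.57 and -0.54). After repeated quantile normalization, which sets the array medians equal, r between Mme and Cyp2b2 was 0.95 with the extract and 0.87 in controls.

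**Figure D3:**
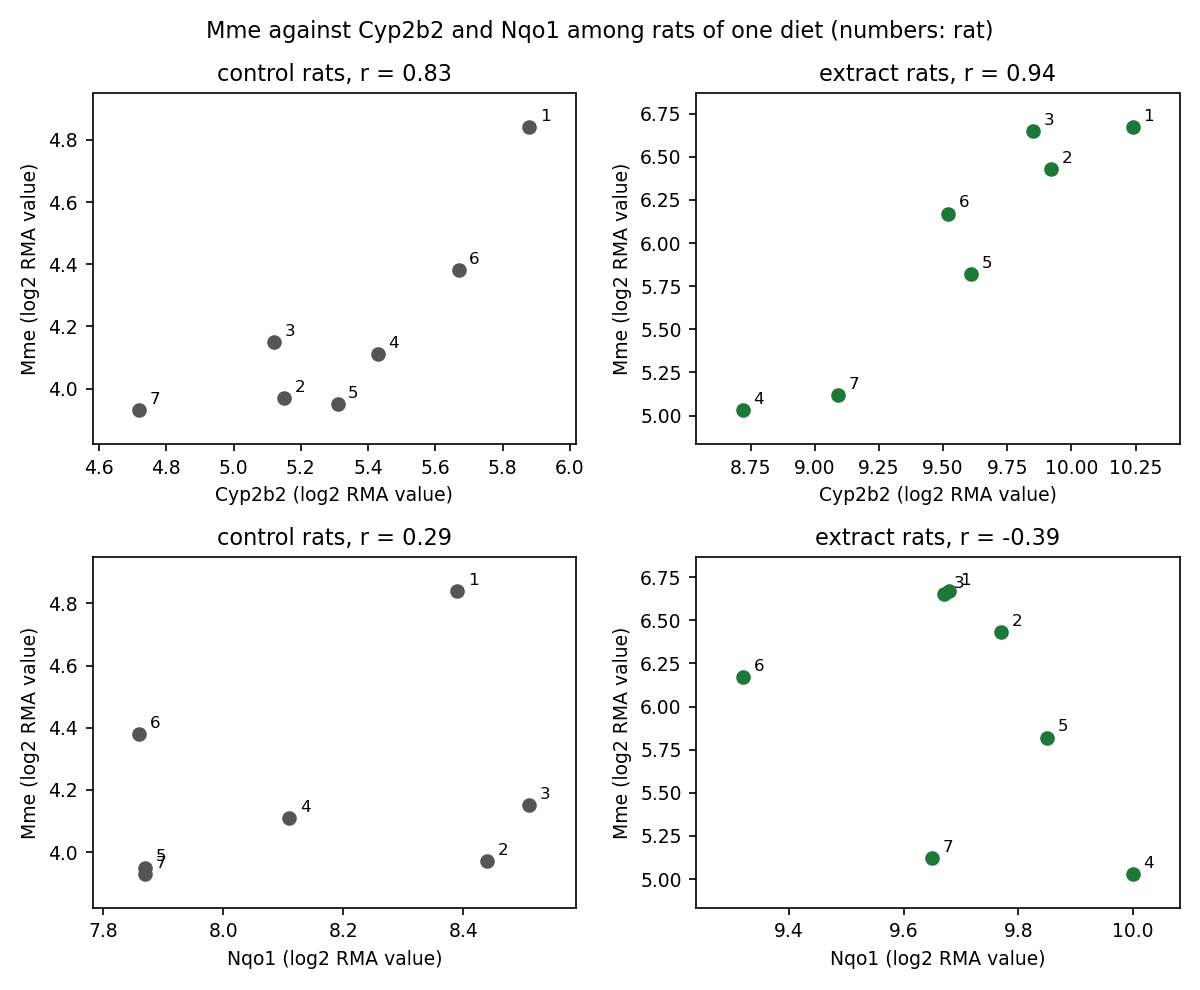
Mme (vertical, log2 RMA value) against Cyp2b2 (top) and Nqo1 (bottom, both log2 RMA values) in control rats (left, grey) and extract rats (right, green), with the rat number beside each point and axes that differ between panels. The r of Mme with Cyp2b2 was 0.83 in controls, which did not pass (exact permutation, adjusted p = 0.16). It was 0.94 with the extract, which passed by r and not by rho (adjusted p = 0.036 and 0.13). The control values of Mme lay below the median gene of these arrays. Against Nqo1 r was 0.29 in controls and -0.39 with the extract.

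Car2 had an r with Cyp2b2 of similar size in both groups, 0.74 in controls and 0.73 with the extract (rho 0.82 and 0.71; exact permutation p = 0.057 and 0.062; adjusted p = 0.25 for each), which did not pass. Control rat 1 was highest in both Car2 and Cyp2b2, and extract rat 4 lowest in both. Without the rats farthest from the median r was 0.70 and 0.56. At least this high an r with Cyp2b2 was found in 3.8% and 2.79% of all genes.

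Csmd1 and Coro6 had r with Cyp2b2 of opposite sign in the groups, and 0 of these 4 relations passed. With the extract r was 0.75 for Csmd1 (rho 0.82, exact permutation p = 0.051, adjusted p = 0.25) and 0.59 for Coro6 (rho 0.61, exact permutation p = 0.16, adjusted p = 0.39). It dropped to 0.36 and 0.28 without the rats farthest from the median, a step that also narrows the range of Cyp2b2. Without each extract rat in turn r ran from 0.61 to 0.88 for Csmd1 and from 0.36 to 0.74 for Coro6. In controls r was -0.60 for Csmd1 (rho -0.68, exact permutation p = 0.16, adjusted p = 0.39) and -0.65 for Coro6 (rho -0.57, exact permutation p = 0.12, adjusted p = 0.39). Without the rats farthest from the median the control values stayed negative, -0.76 for Csmd1 and -0.52 for Coro6. The difference between the groups was not tested.

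Cryl1, the largest rise, followed neither gene at a level that passed. With Cyp2b2 r was 0.50 in the extract rats (rho 0.68, exact permutation p = 0.25, adjusted p = 0.50; 0.88 without the rats farthest from the median) and -0.24 in controls (rho -0.39, exact permutation p = 0.61, adjusted p = 0.73). With Nqo1 r was 0.30 and 0.19 (rho 0.64 and 0.29; exact permutation p = 0.48 and 0.69).

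With Nqo1, 0 of 10 relations passed, and r lay between -0.19 and 0.39 in controls and between -0.54 and 0.30 with the extract. Some of these turned with the rats farthest from the median of Nqo1: over the other 5 control rats r with Nqo1 was 0.96 for Car2 (-0.08 over all 7) and 0.78 for Mme (0.29 over all 7). In the extract rats 4 of the 5 genes had a negative r with Nqo1 and 5 of 5 a positive r with Cyp2b2. Extract rat 4 had the highest Nqo1 of its group (9.998) and the lowest Cyp2b2, Mme, Csmd1 and Car2, which enters each of these values. Without the extract rats farthest from the median of Nqo1, only Csmd1 kept a negative r with Nqo1 (-0.36). That r was then 0.002 for Mme, 0.14 for Coro6, 0.17 for Car2 and 0.61 for Cryl1. Most of the negative signs were thus not kept over 5 rats with a narrower range of Nqo1. Whether r with Cyp2b2 and r with Nqo1 differ was not tested.

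**Figure D4:**
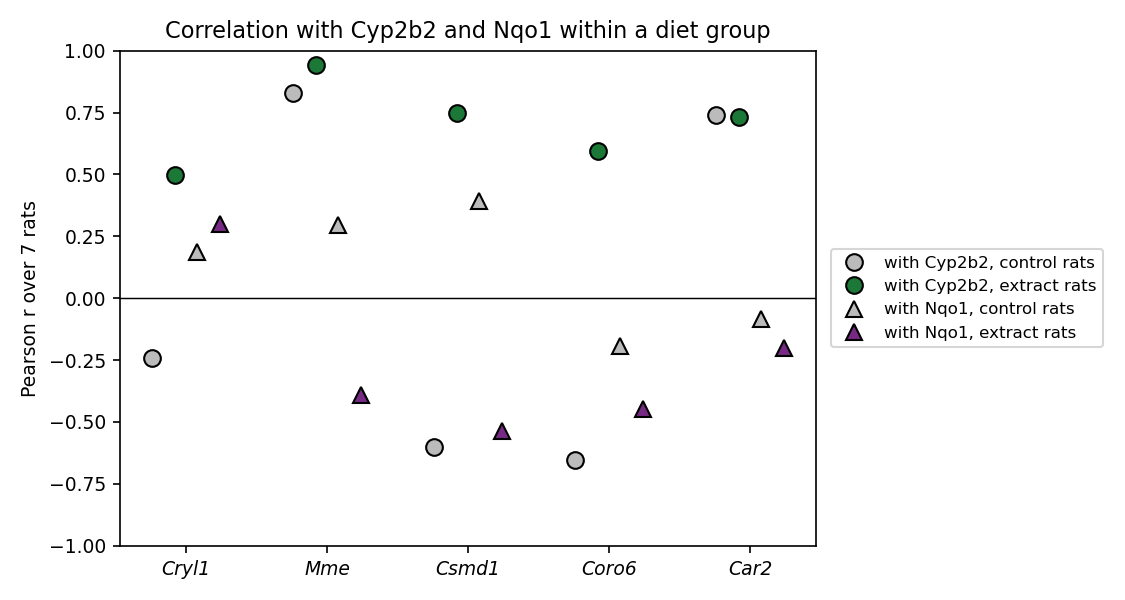
Pearson r over 7 rats of each described gene with Cyp2b2 (circles) and Nqo1 (triangles) in control rats (grey) and extract rats (colour). Mme with Cyp2b2 in extract rats (0.94) is the relation that passed. With the extract every circle is above 0 (0.50 to 0.94) and 4 of 5 triangles are below. Without the extract rats farthest from the median of Nqo1, only the r of Csmd1 with Nqo1 stayed negative (-0.36).

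Among themselves the 5 genes gave 20 relations (10 pairs in 2 groups), of which 0 passed by r or by rho (2 had an unadjusted exact permutation p under 0.05; smallest adjusted p = 0.31). With the extract all 10 pairs had a positive r, from 0.16 to 0.72 with a median of 0.45, highest between Mme and Car2 and between Mme and Csmd1. Without the rats farthest from the median (2 of 7), 3 of these pairs turned negative (Cryl1 with Csmd1 -0.30, Csmd1 with Coro6 -0.29 and Csmd1 with Car2 -0.22), and Cryl1 with Mme was 0.02. In controls 6 of 10 were positive, from -0.74 (Mme with Coro6) to 0.76 (Mme with Car2), with a median of 0.17. Over all 7 rats Mme with Car2 was positive in both groups (0.76 and 0.72), but it was 0.25 and 0.36 without the farthest rats. Csmd1 with Coro6 (0.71 and 0.54) turned to -0.06 and -0.29 without them. Mme with Coro6 was -0.74 in controls and 0.61 with the extract, and -0.13 and 0.49 without them, and Cryl1 with Car2 in controls went from 0.15 to -0.80. These values changed when those rats were left out, a step that also narrows the range of a gene. Differences between the groups were not tested.

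The genes most like each of the 5 were found by the r of deviations from the group means over all 14 rats, among 14505 other genes, as a description with no test. Symbols that start with LOC or RGD, loci with no proper name, were passed over in naming them, also among brighter genes and by rho. The places given by number count all 14505. For Mme the first of all genes was Cyp2b2 (0.90), followed by Klra17 (0.87), a lectin-like receptor, and Irf5 (0.84), an interferon regulatory factor. Cyp2b2 stayed first when only genes averaging 6 or more were compared and by Spearman's rho. For Car2, Gstm3, a mu-class glutathione transferase, came first (0.82), then Serpinb2 and Or5ac25 (0.82 each), which are dim here (means of 2.99 and 3.51); Cyp2b2 took place 38 (0.72) and Mme place 81 (0.67). For Csmd1 these were Bcat2, a branched-chain aminotransferase (0.88), Btc, the growth factor betacellulin (0.85), and St6galnac3, a sialyltransferase (0.83), with Coro6 at place 83 (0.61). For Coro6 they were Mat2a, a methionine adenosyltransferase (0.86), Rbmx, an RNA-binding protein (0.84), and Rnase13 (0.81). For Cryl1 they were Hoxa7 (0.84), Col8a1 (0.82) and Dennd2d (0.82), none of which was kept among the brighter genes or by rho, and Cyp2b2 and Nqo1 stood at places 4121 and 3476. Besides Serpinb2 and Or5ac25, more of the named genes averaged below the median gene (6.09). Their means were 4.07 for Klra17, 4.28 for Hoxa7, 4.54 for Btc and 4.93 for St6galnac3. Rnase13 had 5.03, Col8a1 5.35, Bcat2 5.65 and Dennd2d 5.66. The size of these r values is not unusual: over all genes the median of the highest r with any other gene was 0.90, and 55.5% of genes had a highest r at least that of Mme. The rank of Cyp2b2 for Mme is the measured fact, not the height of its r.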

How the data were processed

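Liver RNA of 14 rats was put on Affymetrix whole-transcript arrays (1 for each animal). The authors deposited log2 values, computed with RMA in Affymetrix Expression Console 1.1.2, per the submitters' processing notes; RMA options and genome build are not given in the sources used here. Depth is a matter of array number: 7 rats per group limit the precision. Of 29215 probes, 15310 had 1 gene symbol in GEO's platform annotation, 323 several, and 13582 were not listed; symbols were updated through NCBI's GRCr8 gene table (0 changed), and the brightest probe stood for a gene (14506 genes, no filter).

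Where the 2 labels differ on the dose, that of the samples was used. Groups and rat numbers come from the sample titles. Extract and control rats were compared with limma 3.58.1 (lmFit, eBayes) in R 4.3.3, Benjamini-Hochberg over all genes, threshold 0.05. Correlations used Python 3.11.15 with exact permutation. The fit and the permutation test were tested on simulated data. Rats with the same number did not deviate together (r from -0.46 to 0.28; own number best in 2 of 7), so no block was used. Named genes are the 5 genes, Cyp2b2 and Nqo1, and others taken by rule. Each of 10 family lists gave the up to 4 passing genes with the smallest p (or the first by p). Each of 10 marker lists gave its brightest gene, and each of the 5 genes its 3 most similar genes. Akr1a1, Dcxr, Xylb, Gulo, Ece1, Sez6l, Krt19, Prom1, Marco and Pdgfrb were named after their values were seen. The genes and lists were chosen with earlier results of these data known. Alternatives were repeated quantile normalization, median centring, genes with a mean of at least 6, the mean of all probes, a trend of variance on intensity (robust), weights on arrays, the rat number as a block, and leaving out each rat.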

Additional observations from a re-analysis of the deposited data

Results flagged for a closer look

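Of 56 groups of 7 rats, 4 had a rat far from the others by Dixon's criterion, where chance gives about 1 in 20. The groups were the described genes, Cyp2b2, Nqo1 and the list genes named by rule, in each diet. The most similar genes and those named after their values were seen were not screened. Control rat 6 was lowest in Csmd1 (5.66, next 6.26). Extract rat 5 was lowest in Ece2 (4.49, next 4.68). Control rat 1 was lowest in Car12 (6.41, next 7.58) and highest in the macrophage marker Vsig4 (10.83, next 10.37).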

How the results depend on the processing

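The log2 differences of the 5 genes kept their sign and moved by less than 1 SD under every alternative that could move them. These were repeated quantile normalization, median centring, array weights and leaving out each rat. The mean of all probes could not, since each gene has a single probe. The gene filter, intensity trend and block leave a difference of group means as it is, and Mme (mean 5.09) was not in the filtered fit. Without each rat in turn the differences ran from 1.75 to 1.96 for Cryl1, 1.68 to 1.95 for Mme, 1.34 to 1.52 for Csmd1, 1.28 to 1.46 for Coro6 and 1.26 to 1.41 for Car2. With array weights 694 genes were called (262 lower), against 457 (167 lower); with the rat number as a replicate block 364 were, and that block also ended the calls of Slc16a7 (adjusted p = 0.073) and Pdgfrb. Without each rat 326 to 621 genes were called and 116 to 292 were lower, the highest without control rat 1. Of the family and pathway genes, 7 rose after median centring in place of 4, and 1 fell after repeated quantile normalization, among genes averaging 6 or more and with an intensity trend (Gulo each time) and 2 with array weights; 0 to 3 fell without each rat. Mme with Cyp2b2 in extract rats lost its call after median centring (r = 0.94, exact permutation, adjusted p = 0.052) and without each extract rat (r from 0.92 to 0.96). The smallest exact permutation p that 6 rats can give is 0.00139, and the cause of neither loss was tested. Car2 with Nqo1 in controls had r = 0.11 after repeated quantile normalization and 0.13 after median centring, and Csmd1 with Car2 in controls 0.02 after the former. Without each rat, some uncalled r changed sign. With Nqo1 in controls these were Mme (-0.05 to 0.49), Car2 (-0.53 to 0.24), Cryl1 (-0.24 to 0.64) and Coro6 (-0.71 to 0.04), and with Nqo1 in extract rats Car2 (-0.55 to 0.41). With Cyp2b2 in controls it was Cryl1 (-0.55 to 0.04). Between the 5 genes they were Cryl1 with Mme (-0.08 to 0.37), Cryl1 with Car2 (-0.33 to 0.48) and Coro6 with Car2 (-0.48 to 0.09) in controls, and Csmd1 with Car2 (-0.30 to 0.43), Cryl1 with Coro6 (-0.31 to 0.68) and Cryl1 with Car2 (-0.12 to 0.29) in extract rats. Of the 3 most similar genes, the comparison among brighter genes kept 2 for Mme and for Coro6 and 0 for Cryl1, Csmd1 and Car2, and rho kept 2 for Mme and Csmd1, 1 for Coro6 and Car2 and 0 for Cryl1. Mme and Coro6 lie below the median gene in controls, and detection above background was not analysed here.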
